A study of Bos taurus with 90 samples.

Results

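Small RNA from the mammary gland of lactating dairy cows was compared between a rice straw diet and a corn stover diet, 6 samples each. The 12 samples were those with the tissue label mammary gland and either diet label, out of 18 mammary gland samples and 90 samples of 5 tissues in the series. All 328 miRNAs listed for mammary gland entered, with no further choice by level. The paper counts a miRNA as expressed in a tissue by its level in most samples of that tissue. The listing may thus rest on levels in these same samples. By its title the series asked about low-quality forage and about miRNAs in the protein metabolism and quality of milk. The cows were Chinese Holsteins (Bos taurus) in mid-lactation, fed diets based on rice straw, corn stover or alfalfa hay, with 6 cows on each diet. No genotype, transgene or drug separated the groups, and the cows' age is not given in the sources used here. Each sample came from a piece of whole gland taken at slaughter, so secretory epithelium, vessels, stroma and blood cells contributed to it together.

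A miRNA is a short RNA that is cut from a hairpin precursor and guides Argonaute proteins to partly matching messenger RNAs, which are then translated less or degraded. Members of a family share the same seed bases and so overlap in the messages they can bind, and members of a genomic cluster can be made from the same primary transcript. In the lactating gland a small number of miRNAs, among them miR-148a, miR-143, miR-30a-5p, miR-26a and the miR-200 family, makes up most of the miRNA pool, and several of these also pass into milk. Levels are given here as CPM, the reads of a miRNA scaled to a fixed total of reads mapped to all annotated miRNAs in the same sample. CPM is thus a share of the pool and not an amount per cell.

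The 10 most abundant miRNAs held a larger share of the pool in rice straw than in corn stover. They were fixed by their mean over these same 12 samples and are not each sample's own 10 highest, so the test describes that set only. The set took from 68.8% to 80.8% of the reads in rice straw, with a median of 73.5%, and from 65.1% to 67.1% in corn stover, with a median of 66.3%. The means were 74.0% ± 4.28 and 66.2% ± 0.803 (SD, n = 6 each), and all rice straw samples lay above all corn stover samples (two-sided exact permutation test over 924 assignments, p = 0.00216, the smallest this design can give, adjusted p = 0.00541 over 5 measures). The upper quartile of the 328 CPM values, the level below which 75% of the miRNAs lay, ran from 203 to 637 CPM in rice straw and from 653 to 773 CPM in corn stover (exact permutation p = 0.00216, adjusted p = 0.00541). The number of miRNAs above 1 CPM was 305 ± 14.6 in rice straw and 321 ± 2.76 in corn stover (SD, n = 6, exact permutation p = 0.0173, adjusted p = 0.0216), and the median CPM was 36.6 ± 16.5 and 55.1 ± 1.68 (SD, n = 6, exact permutation p = 0.0152, adjusted p = 0.0216). The count above 1 CPM was taken within the listed miRNAs, which may already have been chosen by level. Mapped reads ranged from 1527304 to 8364602 in rice straw and from 4421565 to 5755198 in corn stover, and the test did not separate their means (exact permutation p = 0.907, adjusted p = 0.907).

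**Figure D1:**
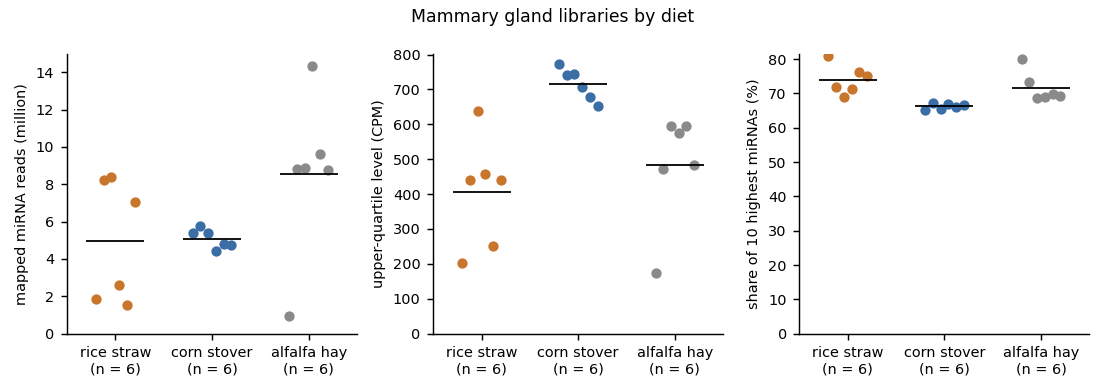
Mapped miRNA reads, upper-quartile level (CPM) and share of the 10 highest miRNAs (%) of each mammary gland sample by diet. Each point is a sample, the line is the mean of 6, and the axes start at 0. The upper quartile of all 6 rice straw samples is below 653 CPM, the lowest of the corn stover samples.

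Rice straw samples also differed more from each other. Between pairs of samples the correlation of log2(CPM + 1) across miRNAs was 0.909 to 0.982 in rice straw and 0.982 to 0.993 in corn stover, over 15 pairs each, a description across miRNAs that share their libraries. The SD of log2(CPM + 1) over the 6 samples was larger in rice straw for 315 of 328 miRNAs, with medians of 0.92 and 0.33. Rice straw 1 and rice straw 5 had the lowest upper quartiles, 203 and 251 CPM, and the fewest reads, 1875290 and 1527304. Rice straw 2, 3 and 6 had 7040454 to 8364602 reads, more than any corn stover sample, and upper quartiles of 441, 637 and 442 CPM. The lowest corn stover upper quartile was 653 CPM. What part depth had in these levels was not tested. Rice straw 3 stood apart in single miRNAs, with 430 CPM of the striated muscle miRNA miR-1 against 2.42 CPM or less in the other 5 rice straw samples and 11.4 CPM or less in corn stover. Rice straw 4 was also shallow, with 2624975 reads, and counts of calls are given below with and without the 3 shallow samples.

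Most miRNAs had a lower share in rice straw, while a few of the most abundant had a higher one. On CPM, 91 of 328 miRNAs (27.7%) passed an adjusted p of 0.05 in limma, 4 higher (1.22%) and 87 lower (26.5%) in rice straw. The median log2 fold change over all 328 miRNAs was -0.63, and 271 of them had a fitted difference below 0. By abundance, the 15 miRNAs with a mean of at least 10000 CPM took 76.2% to 87.8% of the reads in rice straw and 75.7% to 77.5% in corn stover. The 65 miRNAs between 100 and 1000 CPM together took 1.23% to 2.84% in rice straw and 2.92% to 3.12% in corn stover, with no overlap, and their median log2 fold change was -0.93. The 53 miRNAs between 1000 and 10000 CPM took 10.8% to 20.3% and 19.1% to 20.6%. Since CPM values of a sample sum to a fixed total, a larger share of one miRNA lowers the others, and in whole tissue fewer cells of a type and less RNA per cell cannot be told apart.

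After each sample was scaled to the same upper quartile, the median log2 fold change of all miRNAs was 0.13, and the split of calls turned. Of 328 miRNAs 32 (9.76%) then passed, 24 higher (7.32%) and 8 lower (2.44%) in rice straw. With TMM scaling, which trims extreme ratios, the median was 0.0089 and 22 passed, 11 in each direction. The fitted sign differed between CPM and upper-quartile scaling for 136 miRNAs. Of the 87 miRNAs called lower on CPM, 86 were still fitted below 0 after upper-quartile scaling and 86 after TMM scaling, but only 8 still passed the test after upper-quartile scaling. The exception in sign was miR-27b, at -0.71 on CPM and 0.21 after upper-quartile scaling.

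The number of calls changed when samples were left out. A fit of fewer samples has less power, and this was not told apart from reliance on a sample. Without any 1 corn stover sample the median log2 fold change on CPM stayed between -0.67 and -0.59, beside -0.63 with all 12 samples. Without rice straw 1 and 5, 42 miRNAs passed on CPM (1 higher, 41 lower) and 9 after upper-quartile scaling (8 higher, 1 lower). Without rice straw 1, 4 and 5, no library had fewer than 4421565 reads. Then 64 passed on CPM (5 higher, 59 lower) and 25 after upper-quartile scaling (20 higher, 5 lower). The median log2 fold change on CPM was -0.32 in that fit. limma pooled 1 variance per miRNA over both diets, and the rice straw samples varied more. With fewer rice straw samples the pooled variance can understate the error. Counts without these samples, here and below, may thus be too high, and adjusted p too small. With 1 sample left out, the count on CPM fell to 55, 67 and 45 for rice straw 1, 4 and 5. It fell to 42, 61, 41, 41, 58 and 37 for corn stover 1 to 6. It rose to 104 and 139 for rice straw 2 and 3. After upper-quartile scaling the count fell to 25, 27 and 15 for rice straw 1, 2 and 5. It fell to 10, 5, 4, 2, 20 and 8 for corn stover 1 to 6. It rose to 44 and 55 for rice straw 3 and 6.

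**Figure D2:**
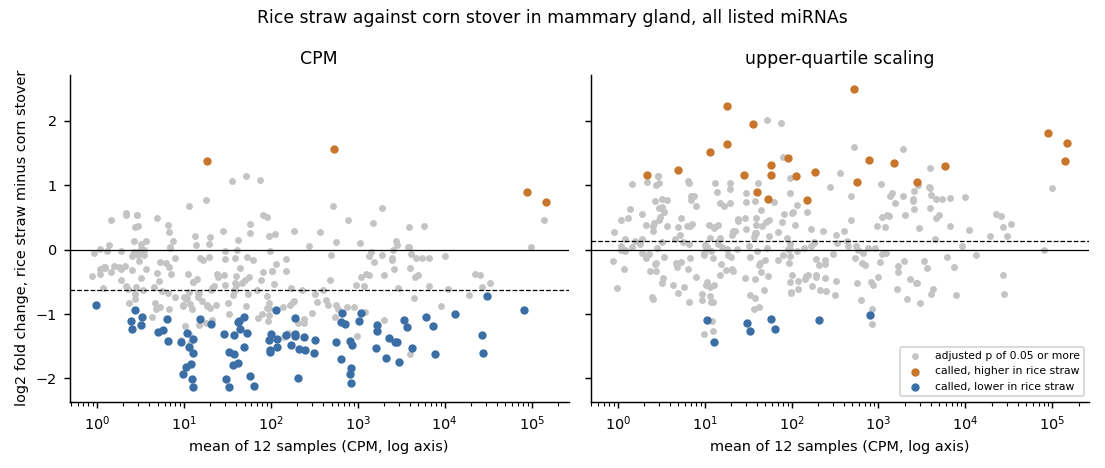
Log2 fold change (rice straw minus corn stover) of 328 miRNAs against mean level (CPM, log axis), on CPM and after upper-quartile scaling. Each point is a miRNA, coloured points pass an adjusted p of 0.05, the solid line is 0 and the dashed line is the median of all miRNAs, -0.63 on the left and 0.13 on the right.

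Under both scalings 12 of 328 miRNAs (3.66%) passed the test in the same direction, 4 higher and 8 lower in rice straw. All 12 also passed with TMM scaling and in edgeR and DESeq2 fits of the reads recovered from the CPM values. These fits reuse the samples in which the 12 were picked, so they are a description and no separate evidence. On CPM 10 of the 12 passed without the intensity trend, and 10 with library weights. After upper-quartile scaling with the replicate number as a block 3 of the 12 passed, and 0 of the 8 lower ones. On CPM 9 of the 12 had groups that did not overlap. Over all 328 miRNAs, the rice straw samples lay all above on CPM for 2 (0.61%) and all below for 48 (14.6%), and after upper-quartile scaling all above for 16 (4.88%) and all below for 7 (2.13%).

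miR-143, a miRNA of smooth muscle and other mesenchymal cells, was the most abundant miRNA over the 12 samples and rose in rice straw. It ran from 129257 to 226993 CPM with a median of 181877 in rice straw, and from 69396 to 125803 with a median of 115648 in corn stover. Every rice straw sample was above every corn stover sample. Its share of the pool was 18.3% ± 3.48 against 11.0% ± 2.02 (SD, n = 6 each), and the log2 fold change was 0.74 ± 0.22 (SE) on CPM (limma adjusted p = 0.025) and 1.66 ± 0.30 after upper-quartile scaling (adjusted p = 0.0115). The call held in 10 of 12 fits on CPM that left out 1 sample and in 12 of 12 after upper-quartile scaling. Without rice straw 1 and 5 the limma adjusted p was 0.0367 on CPM and 0.0138 after upper-quartile scaling. Without rice straw 1, 4 and 5 it was 0.0611 and 0.0251.

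miR-10b, which is encoded in a HOX gene cluster, rose from a share of 5.96% ± 0.834 in corn stover to 11.9% ± 4.59 in rice straw (SD, n = 6 each). The rice straw samples fell into separate ranges, with rice straw 1, 2, 4 and 5 between 139419 and 160303 CPM and rice straw 3 and 6 at 54394 and 67274 CPM, inside the corn stover range of 49952 to 70307. The log2 fold change was 0.89 ± 0.28 (SE, limma adjusted p = 0.0314) on CPM and 1.82 ± 0.44 (adjusted p = 0.0264) after upper-quartile scaling. The call on CPM held in 4 of 12 fits that left out 1 sample, and that after upper-quartile scaling in 7 of 12. Without rice straw 1 and 5 the limma adjusted p was 0.134 on CPM and 0.0739 after upper-quartile scaling, and without rice straw 1, 4 and 5 it was 0.25 and 0.0849.

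miR-146b, a miRNA induced by inflammatory signalling through NF-kappaB, had the largest rise on CPM, at 1.57 ± 0.49 (SE, limma adjusted p = 0.0311), and 2.49 ± 0.46 after upper-quartile scaling (adjusted p = 0.0115). It ran from 257 to 1760 CPM with a median of 515 in rice straw, and from 135 to 531 with a median of 186 in corn stover. Rice straw 2 and 3 were high, at 1487 and 1760 CPM, and the other 4 rice straw samples at 257 to 646 CPM overlapped corn stover 3 at 531 CPM. The call held in 7 of 12 fits on CPM that left out 1 sample, and in 12 of 12 after upper-quartile scaling. Without rice straw 1 and 5 the limma adjusted p was 0.0549 on CPM and 0.0463 after upper-quartile scaling. Without rice straw 1, 4 and 5 it was 0.0284 and 0.0302.

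miR-502b, from an X-linked cluster, was a low-abundance miRNA that rose by 1.38 ± 0.41 (SE, limma adjusted p = 0.025) on CPM and by 2.23 ± 0.48 (adjusted p = 0.0191) after upper-quartile scaling. It ran from 14.8 to 57.0 CPM with a median of 21.4 in rice straw, and from 5.01 to 22.2 with a median of 7.76 in corn stover. Corn stover 5, at 22.2 CPM, was the only corn stover sample above 8.17 CPM. The call held in 7 of 12 fits on CPM that left out 1 sample and in 9 of 12 after upper-quartile scaling. Without rice straw 1 and 5 the limma adjusted p was 0.063 on CPM and 0.0498 after upper-quartile scaling, and without rice straw 1, 4 and 5 it was 0.102, with a log2 fold change of 0.94, and 0.053.

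**Figure D3:**
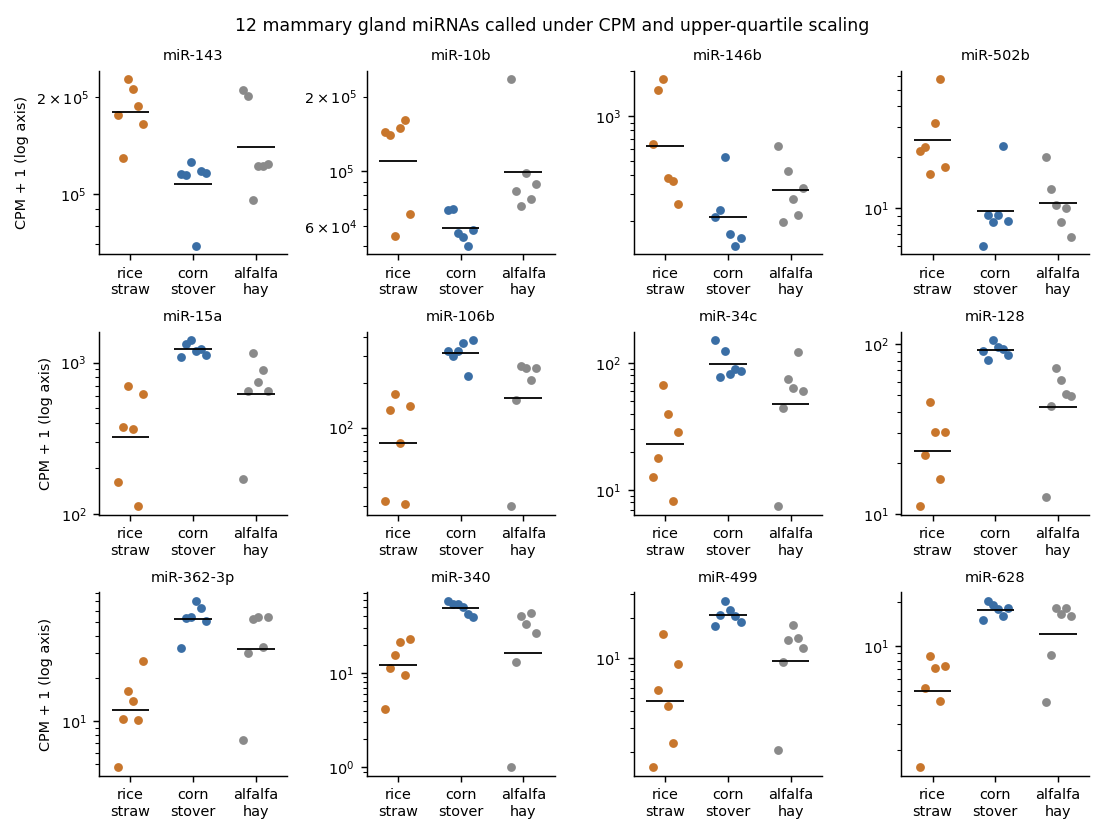
CPM + 1 (log axes, a separate range in each panel) of the 12 miRNAs called under both scalings, in rice straw, corn stover and alfalfa hay. Each point is a sample, n = 6 a diet, and the line is the back-transformed mean of log2(CPM + 1). On CPM the 8 miRNAs of the lower rows have every rice straw sample below every corn stover sample.

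The 8 miRNAs lower in rice straw under both scalings were miR-15a, miR-106b, miR-34c, miR-128, miR-362-3p, miR-340, miR-499 and miR-628. On CPM their log2 fold changes lay between -2.13 and -1.82, all with an adjusted p of 0.00756, and all kept their call in 12 of 12 fits that left out 1 sample. After upper-quartile scaling the changes were smaller in size, between -1.43 and -1.01, with adjusted p from 0.0144 to 0.0431. On that scale the call held in 11 of 12 fits that left out 1 sample for miR-128, in 8 for miR-362-3p, 7 for miR-340, 6 each for miR-15a, miR-106b and miR-34c, 5 for miR-499 and 4 for miR-628.

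miR-128, a miRNA best known from neurons, was the steadiest of them. It ran from 10.1 to 45.0 CPM with a median of 25.3 in rice straw, and from 79.2 to 105 with a median of 91.8 in corn stover. The log2 fold change was -1.97 ± 0.37 (SE) on CPM and -1.08 ± 0.21 after upper-quartile scaling (limma adjusted p = 0.0144), where rice straw samples lay between 25.1 and 36.6 and corn stover samples between 55.5 and 73.3 scaled CPM. After upper-quartile scaling it was the only one of the 8 still called in limma without rice straw 1 and 5 (adjusted p = 0.0463), and without rice straw 1, 4 and 5 it was called together with miR-340 and miR-628 (adjusted p = 0.0302, 0.0359 and 0.0427).

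miR-15a, whose family targets messages of the cell cycle and of BCL2, was the most abundant of the 8. It ran from 111 to 701 CPM with a median of 370 in rice straw, and from 1087 to 1413 with a median of 1212 in corn stover, a mean 3.16-fold higher in corn stover. Rice straw 1 and 5 were lowest, at 161 and 111 CPM, but rice straw 3 and 6, at 701 and 619 CPM, were also below all corn stover samples. The log2 fold change was -1.93 ± 0.41 (SE) on CPM and -1.01 ± 0.26 after upper-quartile scaling (limma adjusted p = 0.0274).

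miR-106b, which lies with miR-93 and miR-25 in an intron of MCM7, fell by 2.00 ± 0.44 (SE) on the log2 scale. It ran from 30.1 to 166 CPM with a median of 104 in rice straw, and from 222 to 384 with a median of 323 in corn stover. After upper-quartile scaling the log2 fold change was -1.09 ± 0.28 (limma adjusted p = 0.0274), and the groups, at 62.4 to 162 and 170 to 306 scaled CPM, again did not overlap.

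miR-34c, a miRNA under the control of p53, ran from 7.20 to 65.5 CPM with a median of 22.2 in rice straw, and from 76.8 to 151 with a median of 86.8 in corn stover. miR-340 ran from 3.20 to 22.2 CPM and from 38.2 to 57.6 CPM, and miR-362-3p from 3.73 to 25.7 CPM and from 31.9 to 69.4 CPM. miR-499, which lies in an intron of the myosin gene MYH7B, ran from 0.533 to 14.0 CPM and from 16.3 to 25.7 CPM, and miR-628 from 0.533 to 7.65 CPM and from 13.9 to 19.3 CPM. These groups did not overlap on CPM, and after upper-quartile scaling those of miR-362-3p and miR-499 did. The rice straw 1 values of miR-499 and miR-628, 0.533 CPM, are below the 1.60 CPM that 3 reads were worth in that sample, so each rests on a single read.

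The 10 miRNAs that changed most downward on CPM held 7 of these 8, and with them miR-429, miR-144 and miR-497, which did not pass after upper-quartile scaling. miR-429, an epithelial miRNA of the miR-200 family, had a log2 fold change of -2.07 ± 0.46 (SE, limma adjusted p = 0.00756) on CPM and -1.15 after upper-quartile scaling (adjusted p = 0.0511). miR-144, which accompanies red cell maturation, was at 0.655 to 13.8 CPM in rice straw and 14.2 to 26.7 CPM in corn stover, and miR-497 at 69.4 to 836 and 846 to 1629 CPM. Both had every rice straw sample below every corn stover sample on CPM, and an adjusted p of 0.109 after upper-quartile scaling.

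Only 4 miRNAs passed upward on CPM, so the 6 with the smallest p next to them are named, none of which passed on CPM. Among them miR-148a, the main miRNA of bovine milk and the second most abundant here, took 16.4% ± 5.20 of the pool in rice straw and 11.4% ± 1.54 in corn stover (SD, n = 6 each). Its log2 fold change was 0.46 ± 0.24 (SE, limma adjusted p = 0.163) on CPM and 1.38 ± 0.39 (adjusted p = 0.0415) after upper-quartile scaling. With TMM scaling miR-148a did not pass. Rice straw 4, at 86639 CPM, was below every corn stover sample, while rice straw 1, 5 and 6, at 196883 to 216977 CPM, were above all of them. miR-6120-3p (adjusted p = 0.0542), miR-2299-5p (0.0827), miR-2285q (0.136), miR-486 (0.226) and miR-1271 (0.228) were the others on CPM, and the first 3 of these passed after upper-quartile scaling. miR-2299-5p was at 17.5 to 37.9 CPM in rice straw and 10.3 to 16.2 CPM in corn stover, without overlap.

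The 10 most abundant miRNAs moved in different directions. Beside miR-143 and miR-10b, which rose, miR-26a took 6.12% ± 3.66 in rice straw and 10.1% ± 1.71 in corn stover, and miR-27b 2.33% ± 0.476 and 3.76% ± 0.306 (SD, n = 6 each). Both fell on CPM (limma adjusted p = 0.0491 and 0.0311), and neither passed after upper-quartile scaling, where miR-26a was at -0.0090 and miR-27b turned to 0.21. miR-22-3p had the largest change among the 10 on CPM, from 4.04% ± 0.418 in corn stover to 1.54% ± 0.805 in rice straw, with a log2 fold change of -1.61 ± 0.36 (SE, adjusted p = 0.00758) on CPM and -0.69 (adjusted p = 0.115) after upper-quartile scaling. Its rice straw samples, at 3995 to 26059 CPM, all lay below the corn stover samples, at 35235 to 45864 CPM. miR-141, of the epithelial miR-200 family, fell on CPM by 1.32 ± 0.46 (SE, adjusted p = 0.0399), with rice straw 4 and 5 at 5685 and 3593 CPM and the other 4 at 15949 to 31374 CPM. miR-30a-5p (0.04 ± 0.23), miR-21-5p (-0.52 ± 0.25) and let-7a-5p (-0.58 ± 0.40, log2 fold change ± SE) did not pass, and the last 2 were fitted above 0 after upper-quartile scaling.

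Families and clusters are described by their counts and medians, beside a median of -0.63 over all 328 miRNAs on CPM and 0.13 after upper-quartile scaling. The lists were matched by name and hold both arms of some hairpins. Members such as let-7a-3p, miR-30b-3p and miR-27a-5p therefore do not share the seed of their list. Of all 328 miRNAs 26.5% were called lower and 1.22% higher on CPM, and 2.44% lower and 7.32% higher after upper-quartile scaling, and the counts below are to be read against these shares. All 4 members of the miR-29 family, which targets collagen and other matrix messages, fell on CPM, with a median of -1.64. miR-29a was at 426 to 2981 CPM in rice straw and 3584 to 5333 CPM in corn stover (-1.75 ± 0.43, SE, limma adjusted p = 0.0114), miR-29c at 411 to 2285 and 2419 to 3560 CPM (-1.69 ± 0.36, adjusted p = 0.00756), and miR-29b and miR-29d also had groups without overlap. After upper-quartile scaling the family median was -0.79 and all 4 were fitted below 0, but none passed (adjusted p from 0.0812 to 0.275).

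Among miR-15, miR-16 and related miRNAs, both arms of miR-424 included, 5 of 8 fell on CPM, with a median of -1.11. They were miR-16b, miR-195, miR-497, miR-15a and miR-15b, and miR-15a alone passed after upper-quartile scaling, where the family median was -0.20. In the miR-17-92 and paralogous clusters, which promote cell cycle entry, 5 of 15 fell on CPM, among them miR-106b, miR-20a, miR-17-3p and miR-363, with a median of -1.01, a count near the 26.5% of all miRNAs. After upper-quartile scaling miR-106b was lower and miR-25 higher in that list, and the median was -0.15. In the miR-30 family 4 of 7 fell on CPM, namely miR-30e-5p, miR-30b-5p, miR-30c and miR-30f, and the median of -1.19 became -0.27 after upper-quartile scaling with none past the test. miR-30a-5p, the most abundant of that family, did not pass, at 178128 CPM in rice straw 1 and 64439 to 106380 CPM in the other rice straw samples.

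Of the miR-23, miR-27 and miR-24 clusters 5 of 7 members fell on CPM, among them miR-27b, miR-27a-3p, miR-23b-3p and miR-23a, with a median of -0.99 that became -0.07 after upper-quartile scaling with none past the test. In the let-7 family list 3 of 10 fell on CPM, near the 26.5% of all miRNAs. They were let-7g, let-7d and let-7a-3p, the last from the opposite arm of its hairpin. The list median, -0.64, was close to that of all miRNAs and turned to 0.28 after upper-quartile scaling. In the miR-99, miR-100 and miR-125 families miR-125a and miR-125b fell on CPM and the other 4 did not pass, and the family median turned from -0.15 to 0.76. One of 2 members of the miR-26 family, 1 of 3 of the cluster of miR-183, miR-96 and miR-182 (miR-96) and 1 of 6 of the X-linked miR-424 cluster (miR-450a) fell on CPM, and none of these lists had a member past the test after upper-quartile scaling.

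The family of miR-148 and miR-152 stood on the other side of the median. None of its 3 members passed on CPM, where their median was 0.46, and miR-148a and miR-148b passed after upper-quartile scaling, where it was 1.38. With TMM scaling none of the 3 passed, and the median was 1.24. miR-148b was at 449 to 1524 CPM with a median of 857 in rice straw and at 517 to 752 with a median of 614 in corn stover, and rice straw 1 and 2 were highest, at 1524 and 1380 CPM. miR-152 reached 1639 CPM in rice straw 3 and 149 to 361 CPM in the other 5. In the HOX-cluster list miR-10b rose and the other 3 of 4 did not pass on CPM, with a median of -0.12 that turned to 0.79.

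In the X-linked cluster with miR-362, miR-500, miR-502, miR-532 and miR-660, members of the same cluster moved in opposite directions. miR-502b rose on CPM while miR-362-3p, miR-362-5p and miR-502a fell, 4 of 8 in all, and the list median was -0.85. After upper-quartile scaling miR-502b and miR-532 were higher and miR-362-3p lower. Of the imprinted DLK1-DIO3 cluster 6 of 33 fell on CPM, among them miR-136, miR-411c-5p, miR-665 and miR-376b, a smaller share than the 26.5% of all miRNAs. After upper-quartile scaling 4 of 33 were higher, namely miR-127, miR-299, miR-381 and miR-410, beside 7.32% of all miRNAs. The medians of that cluster, -0.63 and 0.18, differed from those of all miRNAs by less than 0.1. Of 22 members of the ruminant miR-2284 and miR-2285 family, 2 fell on CPM (miR-2284z and miR-2284n) and 4 were higher after upper-quartile scaling, and the median turned from -0.13 to 0.48. No member of the miR-181, miR-378, miR-103 and miR-107 or miR-221 and miR-222 lists passed on CPM, and after upper-quartile scaling miR-181d alone was higher.

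**Figure D4:**
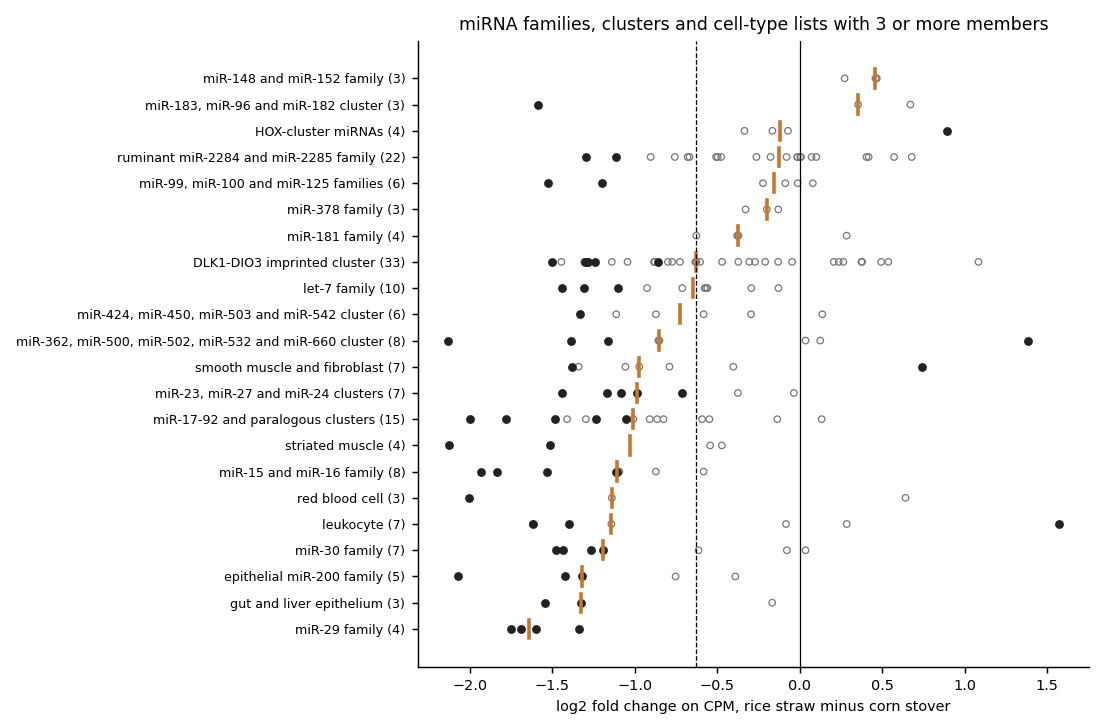
Log2 fold change on CPM (rice straw minus corn stover) of the members of each list with 3 or more miRNAs, the number in parentheses. Filled points pass an adjusted p of 0.05, open points do not, the orange bar is the list median, the solid line is 0 and the dashed line is the median of all miRNAs, -0.63.

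Pairs from the same family or cluster can be set against each other within a sample, where scaling plays no part. These pairs were chosen after the values were seen and carry no test, and near-identical members may share reads. Ratios of low miRNAs rest on few reads in the shallow rice straw samples, where 3 reads were worth up to 1.96 CPM. The ends of such ranges therefore carry counting error. The ratio of miR-502b to miR-502a was 1.53 to 14.5 in rice straw and 0.361 to 0.711 in corn stover, and the ratio of miR-143 to miR-145, which share a primary transcript, was 145 to 497 and 48.0 to 135. Neither pair overlapped between diets. The ratio of miR-106b to its cluster neighbour miR-25 was 0.00772 to 0.0605 in rice straw and 0.0858 to 0.163 in corn stover, and to miR-93 it was 0.143 to 0.307 and 0.344 to 0.573, again without overlap. The ratio of miR-146b to miR-146a had medians of 1.50 and 0.443, with ranges of 0.708 to 3.16 and 0.304 to 0.997, and that of miR-10b to miR-10a had medians of 28.1 and 15.3, with ranges of 16.0 to 58.5 and 8.78 to 22.4, and both pairs overlapped. So did miR-15a to miR-15b, at 7.55 to 23.2 and 18.1 to 23.5, miR-34c to miR-34b, at 1.57 to 11.4 and 10.4 to 12.97, and miR-362-3p to miR-362-5p, at 0.219 to 2.13 and 1.47 to 2.46.

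The ratio of the 5p to the 3p product of a hairpin is also taken within a sample. With 1 CPM added to each arm, scaling still matters where an arm is near that level. None of 25 hairpins with both arms listed passed in limma (0%), 11 had an unadjusted p under 0.05, and the edgeR and DESeq2 fits were not applied to ratios. The smallest adjusted p, 0.0546, belonged to miR-151 and miR-1388, named after their values were seen. The log2 ratio of miR-151 was 0.06 ± 0.57 in rice straw and 1.15 ± 0.21 in corn stover (SD, n = 6 each), with ranges of -1.04 to 0.48 and 0.95 to 1.52 that did not overlap. That of miR-1388 was 2.06 ± 0.99 and 0.72 ± 0.25. Among the 17 hairpins with both arms at a mean of at least 10 CPM these 2 passed (adjusted p = 0.0405 and 0.0422). With a pseudocount of 5 CPM 6 of 25 passed. Among those 6, miR-30b, miR-27a, miR-2419 and miR-411c each had an arm with a mean of only 2.14 to 7.14 CPM.

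Markers of cell types were present at different levels in the samples. The epithelial miR-200 family summed to 10598 to 45143 CPM with a median of 32202 in rice straw, and to 38600 to 58217 with a median of 47329 in corn stover. Rice straw 4 and 5 were lowest, at 11549 and 10598 CPM. Of its 5 members 3 fell on CPM (miR-141, miR-200b and miR-429), beside 26.5% of all miRNAs, none passed after upper-quartile scaling, and the medians were -1.32 and -0.40. In TMM scaling 1 of the 5 was lower.

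Mesenchymal, endothelial and blood cell lists overlapped between diets, apart from the list led by miR-143. The smooth muscle and fibroblast list summed to 134665 to 233230 CPM in rice straw and 73982 to 132822 CPM in corn stover, but it was nearly all miR-143. Of its 7 members miR-143 rose, miR-199a-3p fell and 5 did not pass on CPM, with miR-145 at 355 to 1354 CPM and 870 to 2422 CPM (limma adjusted p = 0.0646), and the list median was -0.97. The endothelial miR-126 list summed to 10201 to 43585 and 29614 to 44086 CPM, and miR-126-3p fell on CPM (-1.63 ± 0.37, SE, adjusted p = 0.00758) but not after upper-quartile scaling (adjusted p = 0.0735). The leukocyte list summed to 1252 to 11133 and 4244 to 10435 CPM. In it miR-146b rose, miR-150 and miR-223 fell on CPM and the other 4 of 7 did not pass, and after upper-quartile scaling miR-146b and miR-155 were higher. The red blood cell list summed to 1202 to 3985 and 1070 to 2938 CPM, with miR-144 alone past the test on CPM.

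Lists named for tissues other than the gland differed in level. The striated muscle list of 4 miRNAs summed to 23.6 to 140 CPM in 5 rice straw samples, 614 CPM in rice straw 3 and 128 to 269 CPM in corn stover, and miR-133a and miR-499 fell on CPM. miR-1 and miR-133b were at 0 in rice straw 5. The hepatocyte miRNA miR-122 was at 48.5 CPM in rice straw 3, 29.7 CPM in corn stover 5 and 9.05 CPM or less in the other 10 samples, and at 0 in rice straw 1. The gut and liver epithelium list summed to 1905 to 2939 and 2683 to 3714 CPM, with miR-194 and miR-215 lower on CPM and none after upper-quartile scaling. The stratified and basal epithelium pair, miR-205 and miR-31, summed to 879 to 9101 and 2107 to 6661 CPM, and neither passed. What part these cell types had in the diet difference was not tested.

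The diet difference in the mammary gland was set against the same difference in rumen, duodenum, jejunum and liver, over the 289 miRNAs listed in all 5 tissues, with 48 samples of the other 4. The median log2 fold change on CPM was -0.68 in mammary gland and 0.05, 0.09, 0.19 and 0.04 in the other tissues in that order. The difference between mammary gland and the mean of the other 4 passed limma's interaction test for 167 of 289 miRNAs (57.8%) on CPM, 8 more positive and 159 more negative in mammary gland, and for 95 (32.9%) after upper-quartile scaling, 59 more positive and 36 more negative. Under both scalings with the same sign it passed for 44. The test pooled a single variance per miRNA over all samples of the 5 tissues. Mammary gland samples on rice straw varied more, with a median SD of log2(CPM + 1) of 0.92 against 0.33 on corn stover. The pooled variance can understate the error of the mammary gland difference, so these counts may be too high.

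The 12 miRNAs above were picked for their difference in these same mammary gland samples, which the interaction reuses, so their counts are a description. On CPM 12 of 12 passed, beside 57.8% of all 289, and after upper-quartile scaling 11 of 12 passed, beside 32.9%, with miR-34c the exception (limma adjusted p = 0.113). The 5 largest interactions on CPM were those of miR-362-3p (-2.38 ± 0.27), miR-340 (-2.26 ± 0.28), miR-497 (-2.19 ± 0.35), miR-499 (-2.18 ± 0.32) and miR-15a (-2.12 ± 0.26, all log2 ± SE). With the pooled variance the SE of miR-15a, 0.26, was below the 0.41 of its mammary gland difference fitted alone. In the other 4 tissues the diet difference of miR-15a was 0.10 to 0.27 and that of miR-499 was -0.03 to 0.23. For miR-146b the other tissues differed among themselves, with 1.05 in jejunum and -0.86 in liver, against 1.57 in mammary gland. After upper-quartile scaling the first 4 of these 5 were at -1.47, -1.36, -1.22 and -1.42, and miR-15a at -1.15, and all 5 still passed.

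**Figure D5:**
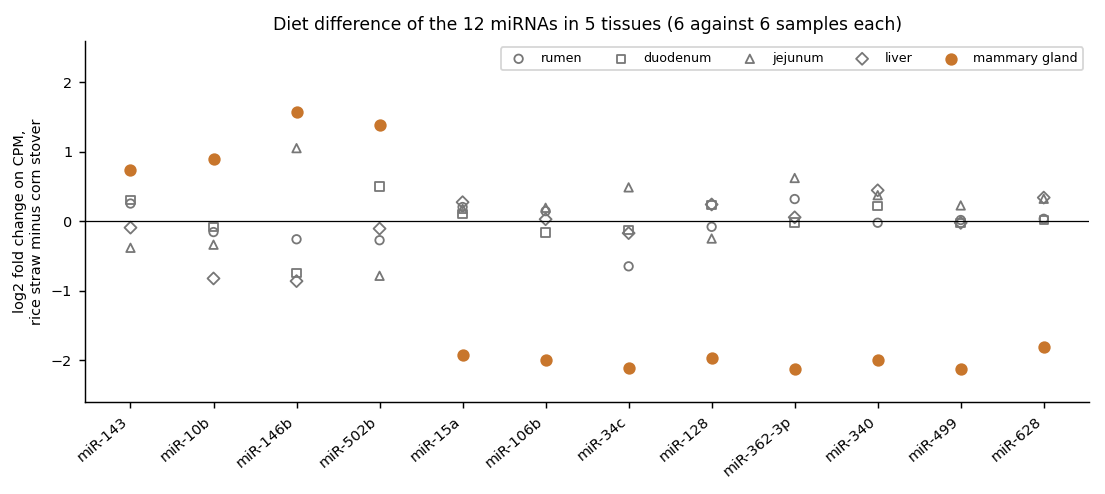
Log2 fold change on CPM (rice straw minus corn stover) of the 12 miRNAs in mammary gland (filled) and in rumen, duodenum, jejunum and liver (open), 6 against 6 samples in each tissue. The 8 miRNAs on the right lie between -2.13 and -1.82 in mammary gland and between -0.65 and 0.62 in the other tissues.

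The alfalfa hay samples of the mammary gland are set beside the other diets as levels only. For all 12 miRNAs the alfalfa hay median lay between the medians of rice straw and corn stover, as it did for 219 of all 328 (66.8%), and the 12 were picked for a difference between the other diets. The alfalfa hay median was 123022 CPM for miR-143, 85747 CPM for miR-10b, 303 CPM for miR-146b and 9.25 CPM for miR-502b. It was 697 CPM for miR-15a, 228 CPM for miR-106b, 49.1 CPM for miR-128 and 29.1 CPM for miR-340. Alfalfa hay 1, with 937556 reads and an upper quartile of 173 CPM, was the lowest of the 6 for miR-106b, miR-128, miR-340 and miR-34c, as rice straw 1 or 5 was within rice straw.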

How the data were processed

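Reads were filtered with CASAVA 1.8 and aligned to bovine miRNA precursors of miRBase with sRNAbench by the authors. The values they deposited are CPM, the reads of a miRNA scaled by all reads mapped to annotated miRNAs in that sample. Mismatches and multiple mappings were allowed, so near-identical miRNAs may share reads. The 328 miRNAs listed for mammary gland were the same in all files. No column was left unused for want of a sample, and the files hold no coordinates or sequences.

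Low values were whole multiples of 1 step, so reads were recovered (100% of values whole within 0.01 read), giving 1527304 to 8364602 reads per sample, where 3 reads were worth 1.96 to 0.359 CPM in rice straw. These cover counting error only. No pair of samples was identical.

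Groups came from the tissue and diet labels, and no batch or date is given. limma 3.58.1 in R 4.3.3 (lmFit, eBayes with an intensity trend) was run on log2(CPM + 1) of all 328 miRNAs in 12 samples, with Benjamini-Hochberg adjustment at 0.05, on CPM as deposited and after division by the upper quartile. The difference understates changes of low miRNAs. The same model was fitted to 5p to 3p log2 ratios and to the interaction with tissue. Library measures were compared by exact permutation (numpy 2.4.6, pandas 2.3.3, Python 3.11.15). The fits were tested on simulated data. Alternatives used TMM scaling, other pseudocounts and filters, edgeR 4.0.16 and DESeq2 1.42.0 on the recovered reads, and fits without samples.

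The miRNAs and lists were chosen with earlier results of these data known. Named are the 10 called miRNAs of largest change each way whose mean was 10 CPM or more (filled by the smallest p), the 10 most abundant, up to 4 called members per list, hairpins past the threshold, and the 5 largest interactions. A few named beyond this rule, among them the within-sample pairs, miR-628, miR-15b, miR-151, miR-1388 and marker miRNAs, were chosen after their values were seen.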

Additional observations from a re-analysis of the deposited data

Results flagged for a closer look

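Over the 66 named miRNAs and 5 library measures, 142 groups of 6 samples were examined for a sample far from the other 5, and 15 had one, where chance at 1 in 20 gives 7.1. In corn stover the lowest sample stood apart for miR-143, with 69396 CPM in corn stover 4 next to 114358 CPM, and for miR-429, with 895 CPM in corn stover 5. The highest corn stover sample stood apart for miR-21-5p (51621 CPM), miR-146b (531 CPM) and miR-223 (158 CPM), all in corn stover 3, for miR-125b (9305 CPM), miR-1271 (61.1 CPM) and miR-502b (22.2 CPM), all in corn stover 5, and for miR-450a in corn stover 6 (86.3 CPM). In rice straw the highest sample stood apart for miR-30a-5p in rice straw 1 (178128 CPM), miR-150 in rice straw 4 (511 CPM), miR-96 and miR-363 in rice straw 2 (122 and 80.0 CPM) and miR-2285q in rice straw 5 (27.5 CPM), and the lowest for let-7g in rice straw 1 (808 CPM).

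The diet difference in mammary gland differed from the mean of the other 4 tissues, by limma's interaction test on CPM, most for miR-362-3p (-2.38), miR-340 (-2.26), miR-497 (-2.19), miR-499 (-2.18) and miR-15a (-2.12, log2). All 5 were also past the threshold after upper-quartile scaling.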

How the results depend on the processing

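Scaling and leaving out samples both moved the counts. Against 91 miRNAs called on CPM (4 higher, 87 lower), 32 were called after upper-quartile scaling (24 and 8), 22 with TMM scaling (11 and 11), 40 by edgeR with TMM (30 and 10), 39 by edgeR without factors (4 and 35) and 62 by DESeq2 (45 and 17, with 11 adjusted p not given). Pseudocounts of 0.1 and 5 CPM, the filters on low values, all 18 mammary gland samples, no intensity trend and library weights gave 77 to 91. Leaving out 1 sample at a time gave 37 to 139 calls on CPM (0 to 5 higher, 37 to 134 lower) and 2 to 55 after upper-quartile scaling (2 to 38 higher, 0 to 17 lower). Leaving out rice straw 1 and 5, chosen after seeing the data, gave 42 on CPM (1 and 41) and 9 after upper-quartile scaling (8 and 1), and leaving out rice straw 1, 4 and 5 gave 64 on CPM (5 and 59) and 25 after upper-quartile scaling (20 and 5). The cause of these shifts was not tested.

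With the replicate number as a block, 85 were called on CPM (4 and 81), 5 after upper-quartile scaling (5 and 0) and 0 arm ratios. No label says whether the numbers pair cows of different diets. Samples of the same number correlated at -0.22 to 0.23 after group means were removed, so no pairing was seen. These few correlations cannot exclude a shared block.

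For arm ratios, 0 of 25 on the scale reported became 6 with a pseudocount of 5 CPM, 2 of 17 with both arms at 10 CPM or more, 4 without rice straw 1 and 5, and 0 to 4 without 1 sample. The interaction count of 167 became 95 after upper-quartile scaling, 98 with the cow as a block besides, 169 with the cow as a block on CPM (the cow being taken from the diet and the replicate number, which no label states) and 164 with a pseudocount of 5 CPM. The number of miRNAs above 1 CPM was 15.8 lower in rice straw on average, and the number above 5 CPM was 22.8 lower.

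Of 66 named miRNAs, 5 changed sign somewhere. miR-27b turned to 0.21 after upper-quartile scaling, 0.064 with TMM, 0.12 in edgeR with TMM and 0.10 in DESeq2. miR-21-5p turned to 0.40, 0.25, 0.26 and 0.24 and let-7a-5p to 0.35, 0.20, 0.52 and 0.51 in the same order. miR-30a-5p, at 0.04 as reported, ranged from -0.14 (without rice straw 1) to 0.16 when 1 sample was left out, and was -0.17 without rice straw 1 and 5 and -0.19 without rice straw 1, 4 and 5, while miR-486 turned to -0.057 without the last 3. Depth limits the lowest values, since 3 reads were worth 1.60 and 1.96 CPM in rice straw 1 and 5.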
